A study of Mus musculus with 2 samples.

Results

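The immediate early genes are genes whose transcription starts within minutes of a stimulus, without new protein synthesis. The set described here holds 10 of them, Fos, Fosb, Jun, Junb, Jund, Egr1, Atf3, Ier2, Zfp36 and Dusp1, found by symbol among 43346 mouse gene identifiers. Stranded poly(A)+ RNA was sequenced from fetal liver of the mouse strain C57BL/6J at embryonic day 18 (E18), in 1 group of 2 libraries that are called biological replicates 2 and 1. Both come from littermates pooled over males and females, per the labels, with no allele, agent or second age given, and no number of animals. The tables hold 139889938 expected counts (estimated fragments per gene) for replicate 2 and 163766625 for replicate 1. Mouse genes took 97.9% of them in replicate 2 and 97.2% in replicate 1.

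With 1 library on each side of the only possible comparison, genes are described without p-values. Levels are given in TPM (transcript abundance scaled for length and to a fixed total), as mean ± SD over the 2 libraries (n = 2). The sequenced libraries did not both match the label of mixed sexes, since Xist, the RNA of the inactive X chromosome in females, had 0.02 TPM in replicate 2 and 99.06 TPM in replicate 1. All 8 hepatocyte markers had a mean of at least 1 TPM, as did all 8 erythroid, neutrophil, macrophage, endothelial and stellate cell markers, so the RNA is that of a mixed tissue. In such bulk RNA, fewer cells of a type and less RNA per cell cannot be told apart. Leaving out either library leaves 1 library and no comparison.

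In resting cells, immediate early genes are held ready by factors already on their promoters, such as serum response factor with its ternary complex partners and the cyclic AMP response element binding proteins. MAP kinases switch these factors on, transcription bursts, and the mRNAs are destroyed soon after, in part because their 3′ untranslated regions carry AU-rich elements. Fos and Jun proteins pair through leucine zippers to form the transcription factor AP-1. Zfp36 and Dusp1 are the feedback arm, since tristetraprolin, the product of Zfp36, brings mRNAs with AU-rich elements to the decay machinery, and Dusp1 removes the activating phosphates from MAP kinases. In the liver these genes are known as the early wave after partial hepatectomy and as responders to stress during tissue handling.

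The sequences that set the short life of these mRNAs were looked for first. In the 3′ UTR of each gene's leading coding transcript (GENCODE M21), the pentamer ATTTA was found on the sense strand in 9 of 10 members, against 64.4% of the 11665 expressed genes with a 3′ UTR. The longer nonamer TTATTTATT, the preferred site of tristetraprolin (read as U in the mRNA), was found in 3 of 10 members, against 6.48% of those genes. Stretches of 30 bases around it are given for these 3, with the nonamer in capitals, because one of them is the mRNA of tristetraprolin itself.
Fos: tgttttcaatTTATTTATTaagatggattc
Zfp36: tatgacgactTTATTTATTgtattaagatt
Dusp1: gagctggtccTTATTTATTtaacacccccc
The nonamer started at base 655 of the 815-base 3′ UTR of Fos on chromosome 12, at base 589 of 774 in Zfp36 on chromosome 7, and at base 103 of 690 in Dusp1 on chromosome 17, where it occurred 2 times. Dusp1 had the highest density of pentamers among the members, 5.80 per kilobase against a median of 1.185 over the expressed genes. Fos followed with 4.91 per kilobase and Junb with 4.12, while Fosb had 0.466 and Ier2 had 0. Each nonamer also contains a pentamer, so the counts of both motifs overlap, and a match does not show that the site is bound.

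Promoter sequence (RefSeq, GRCm38.p6) was given for 8 members, all but Egr1 and Ier2. It was searched on both strands over the 250 bases before the start site, and sites further upstream were not searched. The following stretches carry motifs found in 4 members on which the later results turn, with base -1 being the last before the start. Capitals mark TATAAA and TGACG in Fos, TGACG in Junb, the full cyclic AMP response element TGACGTCA in Dusp1 and the CArG box, the core site of serum response factor, in Zfp36.
Fos: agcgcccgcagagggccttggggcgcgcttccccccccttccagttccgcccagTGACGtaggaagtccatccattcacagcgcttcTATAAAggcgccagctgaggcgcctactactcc
Junb: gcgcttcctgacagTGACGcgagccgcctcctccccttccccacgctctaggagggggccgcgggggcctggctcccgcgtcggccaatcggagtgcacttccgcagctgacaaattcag
Dusp1: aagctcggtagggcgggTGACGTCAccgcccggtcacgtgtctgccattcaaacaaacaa
Zfp36: ccccaggccgccCCATAAAAGGagaaagct
The Fos stretch is chr12:85473770-85473889 on the plus strand and the Junb stretch is chr8:84978749-84978868 on the minus strand. The Dusp1 stretch is chr17:26508573-26508632 and the Zfp36 stretch is chr7:28379269-28379298, both on the minus strand. The Fos TATAAA lay at bases -33 to -28, the Dusp1 element at -143 to -136 and the Zfp36 CArG box at -58 to -49, which is inside an exon of a longer Zfp36 transcript in GENCODE M21.

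Of the 32851 promoters of the same length, 1.55% held TGACGTCA, against 1 of 8 members (Dusp1), and 1.47% held a CArG box, against 1 of 8 (Zfp36). TATAAA was in 12.4% of all promoters and in 1 of 8 members (Fos). The AP-1 site itself, TGACTCA or TGAGTCA, was in 4.46% of promoters and in 0 of 8 members within this window. The site of Sp factors, GGGCGG, was in 32.7% of promoters and in 6 of 8 members. The upstream bases of the 8 members were 47.6% (Jund) to 68.8% (Fosb) G and C, against a median of 52.4% over all promoters. How much of the GGGCGG count goes with base composition was not tested. The Jund window precedes a start where reads were not seen to begin, as described with its gene model, and it held none of these motifs. Without it, GGGCGG was in 6 of 7 members, and the upstream bases were 58.4% (Fos) to 68.8% (Fosb) G and C. The core of the cyclic AMP response element, TGACG, a motif chosen after the sequences were seen, was in 17.8% of promoters and in 5 of 8 members (Fos, Fosb, Junb, Atf3 and Dusp1).

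At E18 the members ran over a wide range of abundance, from Dusp1 down to Fosb. Of the 10 members, 8 had at least 1 TPM in both libraries. The median of mean TPM over all 10, Fosb included, was 7.40 ± 1.52. The median of the 12557 genes that averaged 1 TPM or more, a filter that Fosb does not pass, was 8.49 TPM. Above that value stood 5 of the 10 members. The 10 genes together had 135.5 TPM in replicate 2 and 95.88 TPM in replicate 1. The feedback genes Zfp36 and Dusp1 alone held 48.1% of this sum in replicate 2 and 44.9% in replicate 1.

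Among the AP-1 genes, the Jun family far exceeded the Fos family. Positions given with the members are spans over all transcripts of a gene in GENCODE M21, while TPM rest on the authors' GENCODE M4 models. Jund (chromosome 8, 70698949 to 70700616, plus strand), the Jun protein that resting cells keep and which can restrain growth, had 25.87 TPM in replicate 2 and 23.69 in replicate 1. Junb (chromosome 8, 84974484 to 84978718, minus strand), a weaker activator than Jun with roles in blood cells, had 16.60 TPM in replicate 2 and 9.95 TPM in replicate 1. Jun (chromosome 4, 95049034 to 95052222, minus strand), needed for hepatocyte growth in the mouse fetus, had 7.49 TPM in replicate 2 and 4.77 TPM in replicate 1. Jund thus held 51.8% of the TPM of the Jun family in replicate 2 and 61.7% in replicate 1. The share of Junb was 33.2% in replicate 2 and 25.9% in replicate 1, and that of Jun 15.0% in replicate 2 and 12.4% in replicate 1.

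Fos (chromosome 12, 85473890 to 85477273, plus strand), the partner that makes AP-1 a strong activator, had 1.60 TPM in replicate 2 and 0.96 TPM in replicate 1. Fosb (chromosome 7, 19302696 to 19310051, minus strand), its close relative, had 0.03 TPM in each library, from 14 counts in replicate 2 and 15 in replicate 1. Fos and Fosb together were 3.16% of the TPM of the 5 AP-1 members in replicate 2 and 2.51% in replicate 1. Ratios of mRNA do not give ratios of protein.

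Egr1 (chromosome 18, 34859823 to 34864984, plus strand), a zinc finger factor that serum response factor switches on, had 7.80 TPM in replicate 2 and 3.66 TPM in replicate 1. Atf3 (chromosome 1, 191170296 to 191218039, minus strand), a stress-induced bZIP repressor, had 1.64 TPM in replicate 2 and 1.74 TPM in replicate 1. The start used for the Atf3 promoter search lies inside this span, which reaches further upstream. Ier2 (chromosome 8, 84661331 to 84662852, minus strand), a nuclear protein without a settled biochemical role, had 9.31 TPM in replicate 2 and 8.04 TPM in replicate 1.

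The feedback genes were the most abundant along with Jund. Dusp1 (chromosome 17, 26505590 to 26562128, minus strand) had 32.47 TPM in replicate 2 and 23.60 TPM in replicate 1. The start used for the Dusp1 promoter stretch lies inside this span, which reaches further upstream. Zfp36 (chromosome 7, 28376784 to 28380253, minus strand) had 32.66 TPM in replicate 2 and 19.44 TPM in replicate 1. Among expressed genes, Dusp1 stood above 79.5%, Zfp36 above 78.3% and Jund above 77.4%.

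**Figure D1:**
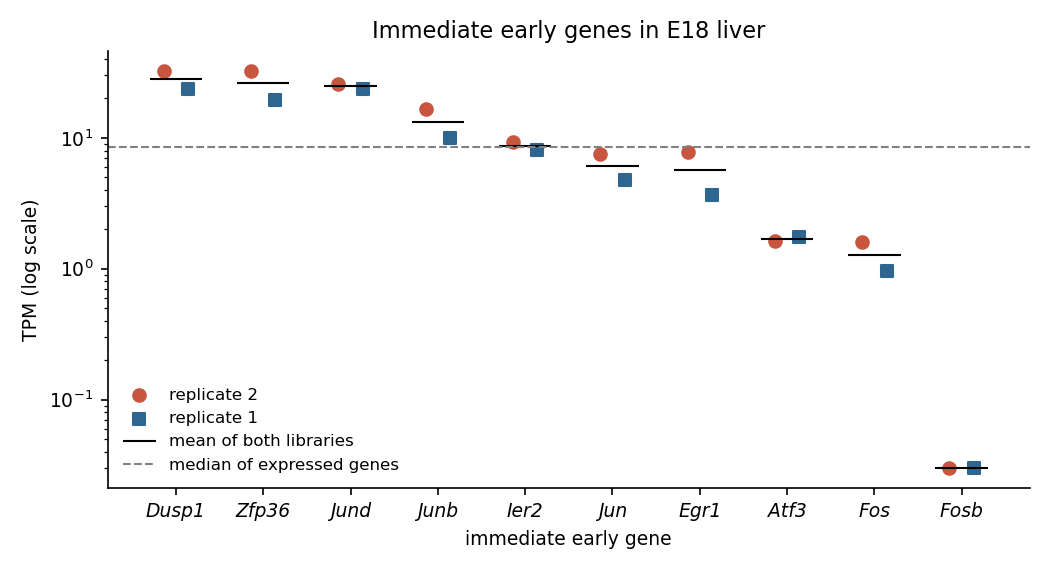
TPM of the 10 immediate early genes on a log axis, ordered by mean, with replicate 2 as circles, replicate 1 as squares, the mean of both as a bar and the median of expressed genes (8.49 TPM) as a dashed line. Dusp1, Zfp36 and Jund lie close together at the top, Atf3 and Fos lie near 1 TPM, and Fosb stands at 0.03 TPM in both libraries.

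By mean TPM the order was Dusp1 (28.0 ± 6.27), Zfp36 (26.05 ± 9.35), Jund (24.8 ± 1.54), Junb (13.3 ± 4.70), Ier2 (8.675 ± 0.898), Jun (6.13 ± 1.92), Egr1 (5.73 ± 2.93), Atf3 (1.69 ± 0.0707), Fos (1.28 ± 0.453) and Fosb (0.03 in both). Neighbours whose ranges over the 2 libraries overlapped were Dusp1 with Zfp36, Zfp36 with Jund, and Jun with Egr1. The ranges of Jund and Junb, Junb and Ier2, Ier2 and Jun, Egr1 and Atf3, Atf3 and Fos, and Fos and Fosb did not overlap. The authors' older gene table on mm9, in mean RPKM (reads per kilobase, scaled to depth), put Jund first at 10.5, ahead of Dusp1 at 6.85 and Zfp36 at 5.62, put Ier2 at 1.96 behind Jun at 2.43 and Egr1 at 2.38, and put Fos at 0.451 ahead of Atf3 at 0.366.

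The level of Jund depends on its gene model. The authors' mm10 model is 2878 bases long, and on mm9 a model of the same length was covered by reads over 73.4% of its bases, because the only sense contig (a stretch of stranded coverage) began at base 765. A shorter model would give a higher TPM for the same counts. The span given above for Jund is too short to hold the 2878-base model. It also begins downstream of the start used for the Jund promoter window. An antisense contig across Jund had a signal of 0.884 against 30.3 for the sense contig, in the authors' unstated signal scale. Whether gene counts were made by strand is not given in the sources used here. Exon bases of the other members were covered over 99.6% or more, apart from Fosb at 58.1%. At Junb the sense contig began upstream, at base -1606 relative to the annotated start. Within the long introns of Atf3, 13 sense contigs had signals of 0.02 to 0.105, against 0.271 to 1.15 for those over its exons.

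The 2 libraries were set against each other next, to see how far these responsive genes differ between littermate pools of the same labels. Xist set the 2 apart, with 0.02 TPM in replicate 2 and 99.06 TPM in replicate 1. The part of sex in the members' ratios was not tested. Most of the members were higher in replicate 2. A ratio was taken for genes averaging at least 50 counts, which left 9 members (all but Fosb), and 8 of these had a log2 ratio above 0, as did 7485 of the 14956 genes tested. Their median log2 ratio, replicate 2 over replicate 1, was 0.54 after TMM scaling of counts, beside 0.00 for all genes tested. No member passed 2-fold, which 1.82% of all genes did, and 0.348% did so upward in replicate 2. At 1.5-fold, 4 of the 9 (Egr1, Zfp36, Junb and Fos) were higher in replicate 2, against 1.62% of all genes tested. The members were chosen with these data known, and genes that respond to 1 signal can shift together, so these counts are a description of 2 libraries. In the mm9 table, whose 2 RPKM values are not assigned to replicates, 2 of the 9 (Egr1 and Fos) differed by more than 2-fold in either direction, against 25.6% of 14281 genes. Relative to the median of those genes only Egr1 did, against 5.64%, and the members' median lay 0.13 from that of all genes on the log2 scale, a smaller distance than in the mm10 counts.

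Egr1 differed most, with 2999 counts in replicate 2 and 1756 in replicate 1. Its log2 ratio after scaling was 0.94 (95% interval from counting error only, 0.85 to 1.02), above 99.6% of genes tested. On the ratio of deposited TPM it passed 2-fold, at 1.09, where the median of all genes tested moved to 0.11.

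Zfp36 had 6609 counts in replicate 2 and 4766 in replicate 1, a log2 ratio of 0.64 (0.58 to 0.69). For Junb the counts were 3462 in replicate 2 and 2513 in replicate 1, and the log2 ratio was 0.63 (0.55 to 0.70). Fos had 362 counts in replicate 2 and 267 in replicate 1, and its log2 ratio of 0.60 has a wide interval, 0.37 to 0.84, at this depth. These 3 ratios each exceeded those of more than 98% of genes tested, and their intervals overlap one another.

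Jun had 2865 counts in replicate 2 and 2206 in replicate 1, a log2 ratio of 0.54 (0.46 to 0.62). Dusp1 differed less, with 6683 counts in replicate 2, 6066 in replicate 1 and a log2 ratio of 0.31 (0.26 to 0.36). Both intervals lie above 0 and do not overlap each other.

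The other 3 members with enough counts had ratios near or below 0. Jund, the Jun family member least tied to stimulation, had 8861 counts in replicate 2 and 9810 in replicate 1, and its log2 ratio of 0.02 had an interval across 0 (-0.02 to 0.06). Ier2 had 1560 counts in replicate 2 and 1634 in replicate 1, with a log2 ratio of 0.10 and an interval from just under 0 to 0.20. Atf3 had 372 counts in replicate 2 and 479 in replicate 1, and its log2 ratio of -0.20 made it the only member lower in replicate 2 (-0.40 to -0.001).

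**Figure D2:**
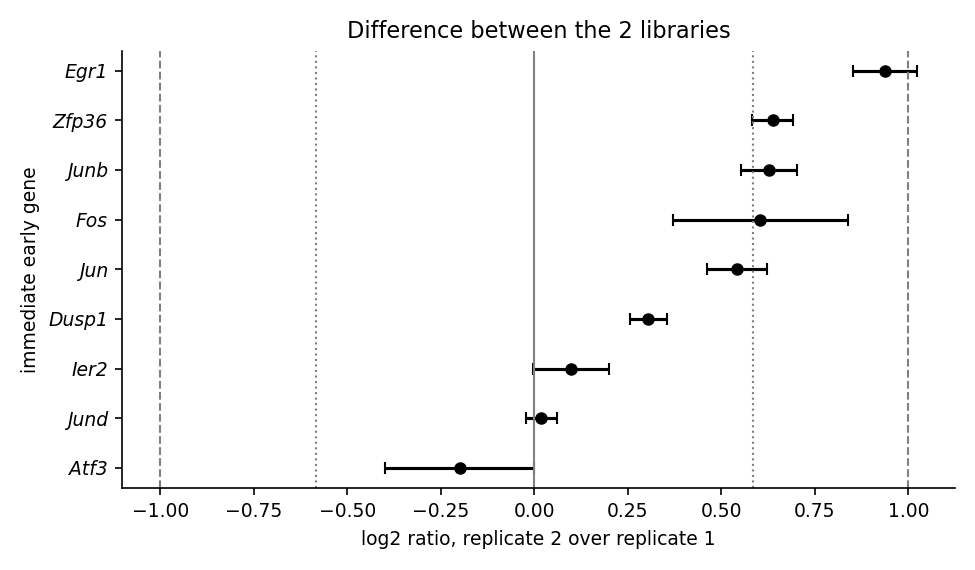
Log2 ratio of scaled counts, replicate 2 over replicate 1, for the 9 members that averaged 50 counts or more, with 95% intervals that cover counting error only. Dotted lines mark 1.5-fold and dashed lines 2-fold, and the points run from Egr1 at 0.94 down to Atf3 at -0.20.

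Spliced reads gave a second view from the same libraries, in the authors' mm9 list of reads across each junction. The list numbers its reads 2 and 1, which are taken here as the replicates of those numbers. The Xist junctions had 1 read numbered 2 and 8758 numbered 1, the same order as in the mm10 tables. It could not be used for Jun, Junb, Jund and Ier2, the 4 members whose main transcript has no intron. The single Zfp36 junction had 1277 reads in replicate 2 and 802 in replicate 1, a log2 ratio of 0.92 (0.79 to 1.05) after scaling by all annotated junction reads. This exceeds the ratio of its gene counts, and the intervals do not overlap.

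The Egr1 junction common to both its transcripts had 102 reads in replicate 2 and 73 in replicate 1, a log2 ratio of 0.73 (0.28 to 1.18). The 3 junctions of the coding Fos transcript had 68 reads in replicate 2 and 64 in replicate 1, too few to set the ratio of 0.33 apart from 0 (-0.18 to 0.85). Atf3 had 64 junction reads in replicate 2 and 96 in replicate 1, a ratio of -0.34 (-0.82 to 0.13). Within Atf3 the first intron carried 18 reads in replicate 2 and 55 in replicate 1, while the 2 further introns each had 23 reads in replicate 2, against 19 and 22 in replicate 1. Fosb had 2 reads in replicate 2 and 0 in replicate 1, all at its second intron, so its long and short splice forms could not be told apart at this depth.

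Dusp1 showed an uneven use of its introns. Intron 1 (mm9 chromosome 17, 26644665 to 26644901) was crossed by 590 reads in replicate 2 and 542 in replicate 1, and intron 3 (26643596 to 26643929) by 764 in replicate 2 and 689 in replicate 1. Intron 2 between them (26644150 to 26644518) was crossed by only 279 reads in replicate 2 and 368 in replicate 1. Intron 2 therefore had 41.2% of the mean of its neighbours in replicate 2 and 59.8% in replicate 1. As a share of the reads over all 3 junctions it had 17.1% in replicate 2 (exact binomial 95% interval 15.3 to 19.0) and 23.0% in replicate 1 (21.0 to 25.2), and these intervals do not overlap.

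The authors' transcript tables, built on mm10, also gave Dusp1 a larger part outside the coding form in replicate 2, but did not match the junction reads. The coding transcript Dusp1-202 held 71.5% of the TPM of Dusp1 in replicate 2 and 81.7% in replicate 1. Dusp1-203, which keeps intron 2 in the mm9 models, held 10.7% in replicate 2 and 6.05% in replicate 1. Dusp1-204, a short transcript that splices intron 2 but neither of its neighbours, held 17.9% in replicate 2 and 12.3% in replicate 1. Together these shares would put intron 2 at 109% of its neighbours in replicate 2 and 107% in replicate 1, far above the shares of junction reads. Read coverage ran through all intron bases of Dusp1 and of Zfp36 (100% of each), 98.4% of those of Egr1 and 94.6% of those of Fos. Nuclear and untailed RNAs stood higher in replicate 2 too (median log2 ratio 0.44), and their part in the intron values was not tested.

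**Figure D3:**
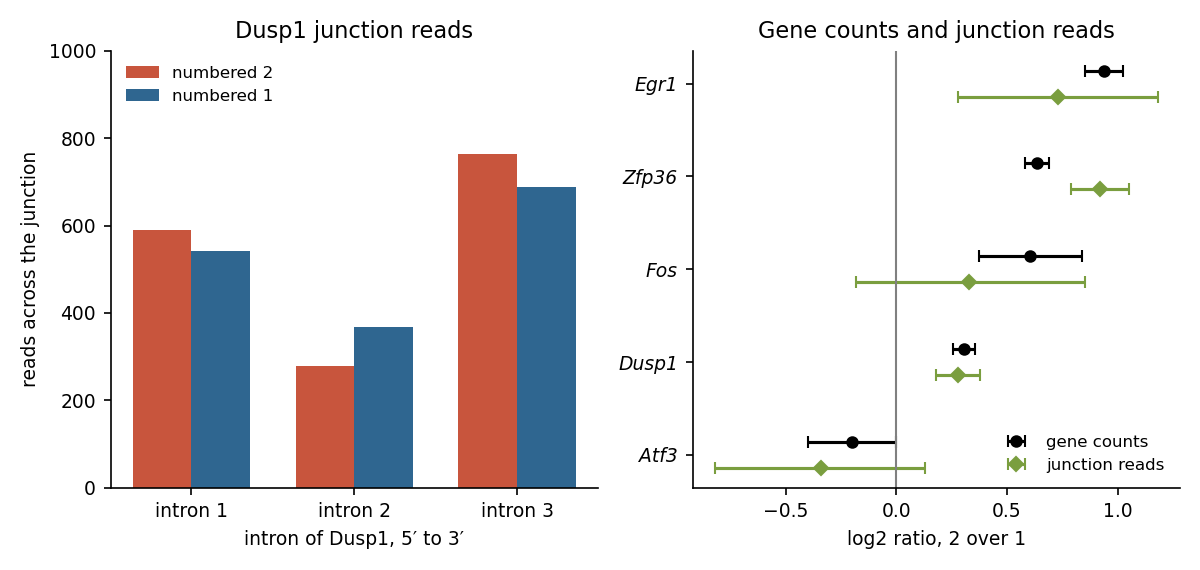
Left, reads across the 3 introns of Dusp1, with bars for reads numbered 2 and 1 in the authors' mm9 junction list, where intron 2 has the fewest in both. Right, log2 ratio of replicate 2 over replicate 1 from gene counts (circles) and from junction reads (diamonds) for the 5 members with introns and enough reads, with 95% counting intervals, where Atf3 alone lies below 0.

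For other members the transcript tables gave mostly 1 form. Fos-201, the coding transcript, held 90.2% of Fos TPM in replicate 2 and 93.1% in replicate 1. Fosb, Jun, Junb, Jund, Atf3, Ier2 and Zfp36 had all their TPM on 1 transcript. Egr1-202 held 88.5% of Egr1 in replicate 2 and 81.9% in replicate 1. In the mm9 models an intron of 36 bases sets it apart, and the junction list held no read for it in either library. The mm10 models behind the split are 3036 bases long for Egr1-202 and 4484 for Egr1-201. That intron therefore does not test the split, which stays uncertain.

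In a list of the wider AP-1 and ATF family, which also holds C/EBP relatives, the libraries differed little. Beside this list and those that follow, 7485 of all 14956 genes tested were above 0 and 1.82% passed 2-fold. Of the 20 further genes, 19 had a mean of at least 1 TPM. Of 19 with enough counts, 11 were above 0 and none passed 2-fold (median log2 ratio 0.06). The stress-response factor Atf4 had 157.6 TPM in replicate 2 and 172 in replicate 1, and Atf5 had 161.5 in replicate 2 and 154.4 in replicate 1, so both exceeded every member. Of the other Fos genes, Fosl2 had 1.68 TPM in replicate 2 and 1.73 in replicate 1, and Fosl1 was listed at 0 in both libraries. In E18 liver Fosl2 thus stood slightly above Fos in replicate 2 (1.60 TPM for Fos) and further above it in replicate 1 (0.96).

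Other transcription factors of the immediate early class were mixed. Of 18, 11 had a mean of at least 1 TPM, and 7 of 14 tested were above 0 (median 0.02). The relatives of Egr1 were near absent, with Egr2 at 0.04 TPM in replicate 2 and 0.17 in replicate 1, Egr3 at 0.03 in replicate 2 and 0.08 in replicate 1, and Egr4 listed at 0 in both. Id1, an inhibitor of helix-loop-helix factors, had 46.36 TPM in replicate 2 and 48.3 in replicate 1. Myc, the growth regulator, had 28.76 TPM in replicate 2 and 18.86 in replicate 1, with a log2 ratio of 0.47.

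Of 23 immediate early effectors, 15 were above 0 with a median of 0.06, and none passed 2-fold. Errfi1, an inhibitor of the EGF receptor, was highest with 109.2 TPM in replicate 2 and 84.85 in replicate 1. The relatives of Ier2 were lower than Ier2 itself, with Ier3 at 5.86 TPM in replicate 2 and 4.81 in replicate 1, and Ier5 at 4.55 in replicate 2 and 4.77 in replicate 1. Arc, a gene of neurons, was the lowest of the list at 0.18 TPM in replicate 2 and 0.16 in replicate 1.

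The signalling genes upstream of the members were present and close between the libraries. Of 21 MAP kinase cascade genes, 20 had a mean of at least 1 TPM and 13 were above 0 (median 0.04), and none passed 2-fold. Of 12 promoter factors and coactivators, all had a mean of at least 1 TPM and 9 were above 0 (median 0.10). The highest was Stat3, which cytokines activate, at 35.49 TPM in replicate 2 and 29.31 in replicate 1.

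Among the 9 other MAP kinase phosphatases, none came up to Dusp1. Dusp6, which acts on MAP kinases in the cytoplasm, was the highest with 21.89 TPM in replicate 2 and 18.35 in replicate 1. Dusp9 was the only one past 1.5-fold, with 5.39 TPM in replicate 2, 3.05 in replicate 1 and a log2 ratio of 0.72, and 4 of the 9 were above 0 (median -0.08). Dusp2, with 3.43 TPM in replicate 2 and 4.2 in replicate 1, lay furthest the other way at -0.42.

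The relatives of Zfp36 with enough counts were also higher in replicate 2. Zfp36l1 had 39.43 TPM in replicate 2 and 28.56 in replicate 1 (log2 ratio 0.36), and Zfp36l2 had 20.19 in replicate 2 and 13.73 in replicate 1 (0.45). Zfp36l1 was thus more abundant than Zfp36 in both libraries, and Zfp36l3 stood at 0.01 TPM in each. Of 18 tested genes of this family and of mRNA decay, 14 were above 0 with a median of 0.11, and the AU-rich element binding protein Hnrnpd was highest at 98.5 TPM in replicate 2 and 94.13 in replicate 1.

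Early inflammatory genes, which share inducers with the members, were low but leaned the same way. Of 10, 5 had a mean of at least 1 TPM, and 5 of 7 tested were above 0 (median 0.38), as were 7485 of all 14956 genes tested. Below 0 were Icam1, the highest of the list, with 9.25 TPM in replicate 2 and 8.63 in replicate 1 (-0.01), and Tnf. Tnf had 1.25 TPM in replicate 2 and 1.24 in replicate 1 (-0.105). Il1b, an interleukin of myeloid cells whose mRNA carries AU-rich elements, passed 2-fold with 1.27 TPM in replicate 2 and 0.46 in replicate 1 (log2 ratio 1.31). Cxcl1, a neutrophil attractant, had 3.25 TPM in replicate 2 and 1.81 in replicate 1. Heat shock genes leaned the other way, with 4 of 12 above 0 and a median of -0.22, and Hspa8 had 706 TPM in replicate 2 and 997.2 in replicate 1.

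**Figure D4:**
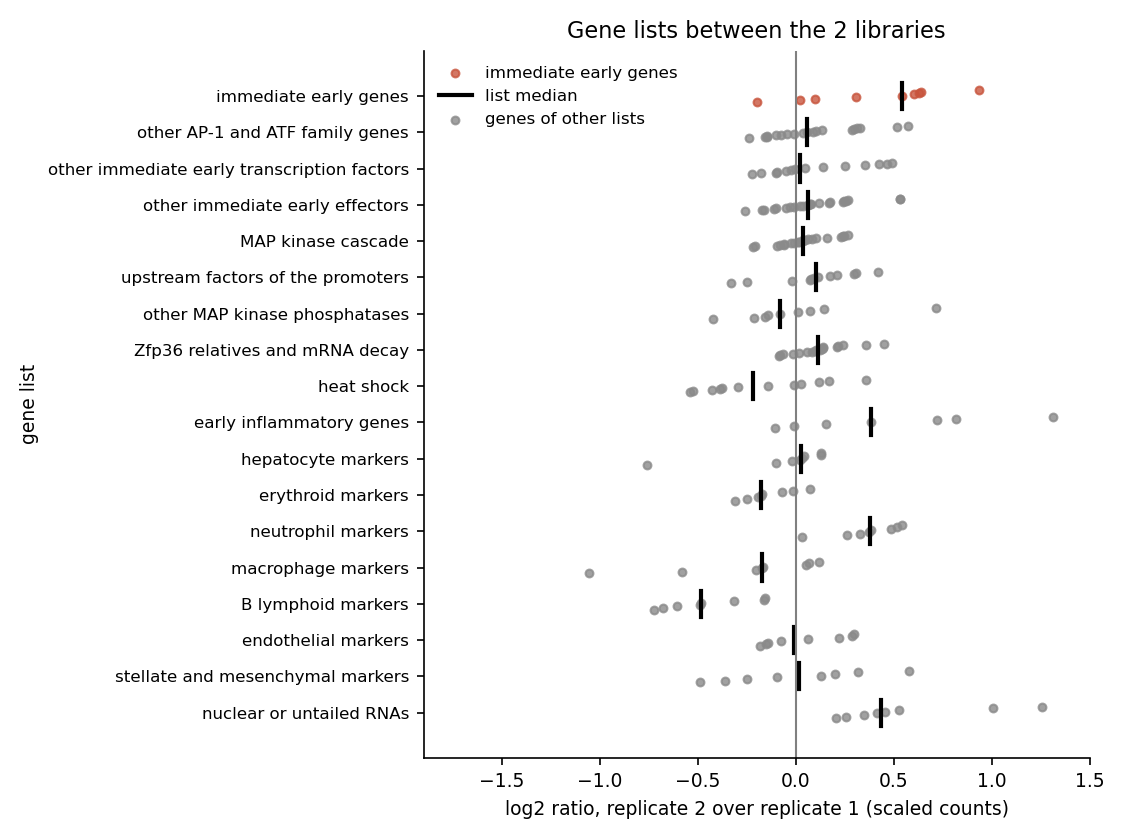
Log2 ratio of scaled counts, replicate 2 over replicate 1, for genes of each list that averaged 50 counts or more, with the list median as a bar. The immediate early genes have the highest median (0.54) of the 18 lists drawn at this filter. Without the filter their median was 0.42, and the order of the lists was not tested there. Pancreas acinar (median -7.42) and striated muscle (median -2.40) markers are left out because they lie far to the left.

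Neutrophil markers and nuclear or untailed RNAs were higher in the same library as most members, and B lymphoid, pancreas acinar and striated muscle markers were lower in it. All 8 neutrophil markers were higher in replicate 2 (median log2 ratio 0.38), as were 7485 of all 14956 genes tested. The summed level of these markers was 13080 TPM in replicate 2 and 9081 TPM in replicate 1. All 8 nuclear or untailed RNAs tested, a list chosen after the data were seen, were also higher (median 0.44), with Rn7sk, the RNA that holds back the elongation kinase P-TEFb, at 3183 TPM in replicate 2 and 1353 TPM in replicate 1. All 8 B lymphoid markers were lower in replicate 2 (median -0.48), with sums of 98.28 TPM in replicate 2 and 133.5 in replicate 1. Erythroid markers leaned lower in replicate 2 (1 of 8 above 0, median -0.18), as did macrophage markers (3 of 8, median -0.17). Clec4f, a macrophage marker, passed 2-fold downward, with 35.99 TPM in replicate 2 and 64.49 in replicate 1 (log2 ratio -1.055). Medians of hepatocyte (0.03), endothelial (-0.01) and stellate cell (0.02) markers lay near 0. Pancreas acinar markers summed to 0.75 TPM in replicate 2 and 53.99 TPM in replicate 1, with 4 of 8 at 0 in replicate 2, and striated muscle markers to 7.81 TPM in replicate 2 and 20.53 in replicate 1. The part of any of these in the members' ratios was not tested.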

How the data were processed

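Poly(A)+ RNA of E18 mouse liver was measured in 2 libraries. Per the file headers and labels, the authors made the mm10 tables (GENCODE M4) for each library, and no aligner or quantifier is named in the sources used here. The deposited expected counts estimate fragments per gene and were rounded to whole numbers. The TPM and FPKM values were deposited by the authors, as was each transcript's percent of its gene's TPM. The authors' mm9 tables (ENSEMBL 65 models) give 2 RPKM values per gene, read counts per junction and a signal per contig whose scale is not stated, per the file headers. The 2 RPKM values are numbered the other way round from the labelled replicates by Xist, at 0.0362 in the value numbered 1 and 27.05 in that numbered 2, beside 0.02 TPM in replicate 2 and 99.06 TPM in replicate 1. Columns were not assigned to replicates by their values, so the mean of the 2 is used, and a ratio only as numbered or with no direction. Of the mm10 rows, those naming no mouse gene were left out of library sizes.

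Counts were scaled by TMM in edgeR 4.0.16 (R 4.3.3), with 0.5 added before log2, at a mean count of at least 50. DESeq2 1.42.0 size factors were an alternative. The quasi-likelihood test of edgeR could not be run with 1 library a side. Intervals are exact binomial and cover counting error only. The ratio step was tested on simulated data. Positions are 1-based, on mm10 (GENCODE M21) for genes and mm9 for junctions, and none was converted. The 10 members and 18 of the 19 further gene lists, the settings and the rule for named genes (all members, the 4 highest and the lowest of each list, any past 2-fold, and relatives of members) were chosen with earlier results of these data known. Some genes of these lists are not reported here.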

Additional observations from a re-analysis of the deposited data

How the results depend on the processing

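The number of members at 1 TPM or more in both libraries was 8. It was 5 at 5 TPM, 9 at 0.5 TPM and 8 under FPKM. Under mm9 RPKM it was 6, since the lower values of Egr1 (0.9775) and Atf3 (0.3453) were also under 1. The count with 1 library, an alternative chosen after seeing the data, was 8 to 9. The median TPM was 6.405 to 8.555 with 1 library. As a multiple of the median expressed gene, the median of all 10 members, Fosb included, was 0.872 in TPM and 1.05 in mm9 RPKM. The number of members beyond 2-fold, 0 after TMM, was 1 (Egr1) on the TPM ratio and 4 at 1.5-fold. The members' median log2 ratio was 0.65 on the TPM ratio, where the median of all genes moved to 0.11, and 0.42 with no filter on the mean count or a mean count of at least 10, both of which add Fosb. Relative to all genes, 4 members passed 1.5-fold upward under each of these scalings. Under the mm10 scalings and filters no direction of a member reversed. The cause of the shift on the TPM ratio was not tested. Junction reads at the mm9 intron that sets Egr1-202 apart put its share at 0%. The mm10 models also differ in length, so this does not test the mm10 split. Splicing of Dusp1 intron 2, relative to its neighbours, was 108% from transcript TPM and 50.5% from junction reads, and no junction separates Dusp1-202 from the other forms. Clec4f, the macrophage marker past 2-fold, was not past it on the TPM ratio. Between the 2 mm9 RPKM values, 2 members passed 2-fold in either direction. As numbered, 2 over 1, the members' median log2 ratio was -0.64 and that of all genes -0.51, with Fos at -1.40, Jun -0.86, Junb -0.64, Egr1 -1.95, Zfp36 -0.68, Dusp1 -0.59 and Atf3 0.16. These signs are opposite to those of the mm10 ratios, and by Xist the numbering is too, so they are not read as reversals. Relative to all genes, 6 of 9 members lay on the side of Egr1. A ratio cannot be had with either replicate left out. No paired analysis was possible because there is 1 group. Depth limits Fosb (14 counts in replicate 2 and 15 in replicate 1) and the junction reads of Fos and Atf3.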
